A study of Rattus norvegicus with 20 samples.

Results

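Expression of 7 genes that mark satellite cells or drive the myogenic programme was measured in the gastrocnemius muscle of tumour-bearing rats. The genes were Pax7, Myf5, Cdh15, Myod1, Myog, Myf6 and Mef2c, taken by symbol from the 29826 distinct gene names of the count table, and all 7 were found. All animals were female Fischer 344 rats that carried the Ward colorectal tumour for 2 weeks before treatment began. TUMOUR STD rats ate a standard diet and received no chemotherapy. CHEMO STD rats ate the same diet and received 2 cycles of CPT-11 (irinotecan) followed by 5-FU (5-fluorouracil, 50 mg/kg). CHEMO FO rats received the same 2 cycles and were switched to a fish oil diet with added EPA and DHA at the start of chemotherapy. In the chemotherapy groups muscle was taken 7 days after the last cycle. The sources used here give no separate harvest day for TUMOUR STD, which received no cycle. All groups carried the tumour, so no tumour-free muscle enters the comparisons. The libraries were rRNA-depleted total RNA from bulk muscle, with 5, 7 and 8 libraries in the 3 groups.

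Satellite cells are the resident stem cells of skeletal muscle. They lie against the fibre, express the paired-box factor Pax7 and, once activated, turn on the basic helix-loop-helix myogenic regulatory factors, which bind the E-box motif CANNTG together with E proteins. Myf5 and Myod1 act in commitment, Myog (myogenin) in differentiation and fusion, and Myf6 (MRF4) is the family member most associated with mature fibres. Cdh15 (M-cadherin) holds satellite cells to the fibre, and Mef2c is a MADS-box factor that works with the myogenic factors in differentiating muscle and in fibres. In bulk muscle, fewer cells of a type and less RNA per cell cannot be told apart.

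Depth ranged from 3020821 to 10857477 counts on named genes per library. CHEMO STD replicates 1 and 2 differed far less than any other pair (chi-square per gene 2.23, against 13.7 to 255 in 58 other pairs within groups) and were counted as 1 sample, which left 5, 6 and 8 samples. Markers of the labelled tissue were abundant, with a summed myofibre level of 117831 to 235862 counts per 1000000 counts (CPM). CHEMO FO replicate 18 stood apart. Its median correlation with the rest of its group was 0.906, against 0.941 to 0.967 in all other libraries, and its summed myofibre level was the lowest of the 19 samples. Its level of the metallothionein Mt2A was 731 CPM, against at most 11.1 CPM elsewhere, and that of the atrophy-associated ubiquitin ligase Trim63 was 2602 CPM, against at most 416 CPM elsewhere. Results it could touch are therefore given with and without this sample. Levels are CPM on TMM-scaled library sizes and differences are log2 fold changes from edgeR's quasi-likelihood test over all 11716 genes tested. A call required a fold of 1.5 or more in either direction together with p under 0.05 before adjustment. All 7 genes passed the low-count filter. CHEMO STD versus TUMOUR STD is called the chemotherapy comparison, CHEMO FO versus CHEMO STD the diet comparison and CHEMO FO versus TUMOUR STD the combined comparison. In the diet comparison all 7 genes overlapped between the groups, as did all but 0.0683% of genes tested. Without replicate 18 none of the 7 genes was called in any comparison, against 2.66%, 1.47% and 2.36% of all genes in the chemotherapy, diet and combined comparisons.

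The satellite cell markers Pax7 and Myf5 rested on few counts, 3 to 32 and 1 to 60 per library. In TUMOUR STD, Pax7 stood at 0.523, 1.93, 2.18, 2.57 and 2.60 CPM. In CHEMO STD it ranged from 0.920 to 2.78 CPM (median 1.67, n = 6), and in CHEMO FO from 0.722 to 3.79 CPM (median 1.64, n = 8). The 3 ranges overlapped almost fully, and the lowest value, in TUMOUR STD replicate 8, rested on 3 counts (95% Poisson interval 0.108 to 1.53 CPM, for counting error only). The group means were 1.96 ± 0.849 (SD, n = 5), 1.78 ± 0.818 (n = 6) and 1.76 ± 1.00 CPM (n = 8), so neighbours in this order did not differ beyond their spread. The log2 difference was -0.084 (95% interval -0.94 to 0.78) in the chemotherapy comparison, -0.15 (-0.96 to 0.65) in the diet comparison and -0.24 (-1.06 to 0.59) in the combined one. In the first of these the interval ran from 0.520-fold to 1.71-fold, so changes of that size cannot be told from none at this depth. Without replicate 18 the last 2 differences were -0.0066 (-0.73 to 0.72) and -0.074 (-0.88 to 0.73).

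Myf5, which acts with Myod1 in commitment, stood at 1.24, 1.46, 1.75, 1.92 and 2.68 CPM in TUMOUR STD. It ranged from 1.23 to 3.15 CPM (median 2.04) in CHEMO STD and from 0.293 to 5.48 CPM (median 3.10) in CHEMO FO. The order of means was TUMOUR STD, CHEMO STD, CHEMO FO, at 1.81 ± 0.553, 2.07 ± 0.768 and 2.68 ± 1.55 CPM (SD, n = 5, 6 and 8), and each step was smaller than the spread. Both ends of the CHEMO FO range were single samples. The lowest, replicate 13, held 1 count (95% Poisson interval 0.00741 to 1.63 CPM), and the highest was replicate 18. The log2 difference was 0.23 (95% interval -0.62 to 1.08) in the chemotherapy comparison and 0.39 (-0.37 to 1.14) in the diet comparison, which became 0.12 (-0.60 to 0.85) without replicate 18. In the combined comparison it was 0.62 (-0.18 to 1.41, adjusted p = 0.620 in edgeR's test), and 0.37 (-0.40 to 1.13) without replicate 18. Without replicate 13 it was 0.77 and passed the call (adjusted p = 0.497 in edgeR's test). The side of the threshold on which Myf5 fell thus rested on 1 sample.

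Cdh15, the satellite cell adhesion gene, was measured more precisely. Its levels were 17.8, 19.8, 20.2, 21.0 and 21.5 CPM in TUMOUR STD, 15.4 to 22.8 CPM (median 18.5) in CHEMO STD and 14.9 to 24.0 CPM (median 21.4) in CHEMO FO. All groups overlapped, and replicate 18, at 20.2 CPM, lay in the middle of its group. The log2 differences were -0.085 (95% interval -0.40 to 0.23) in the chemotherapy comparison, 0.11 (-0.17 to 0.40) in the diet comparison and 0.027 (-0.27 to 0.32) in the combined one, and without replicate 18 the last 2 were 0.12 (-0.18 to 0.41) and 0.042 (-0.26 to 0.35). These intervals leave out a 1.5-fold change in either direction, a bound that the data do not give for Pax7 or Myf5.

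**Figure D1:**
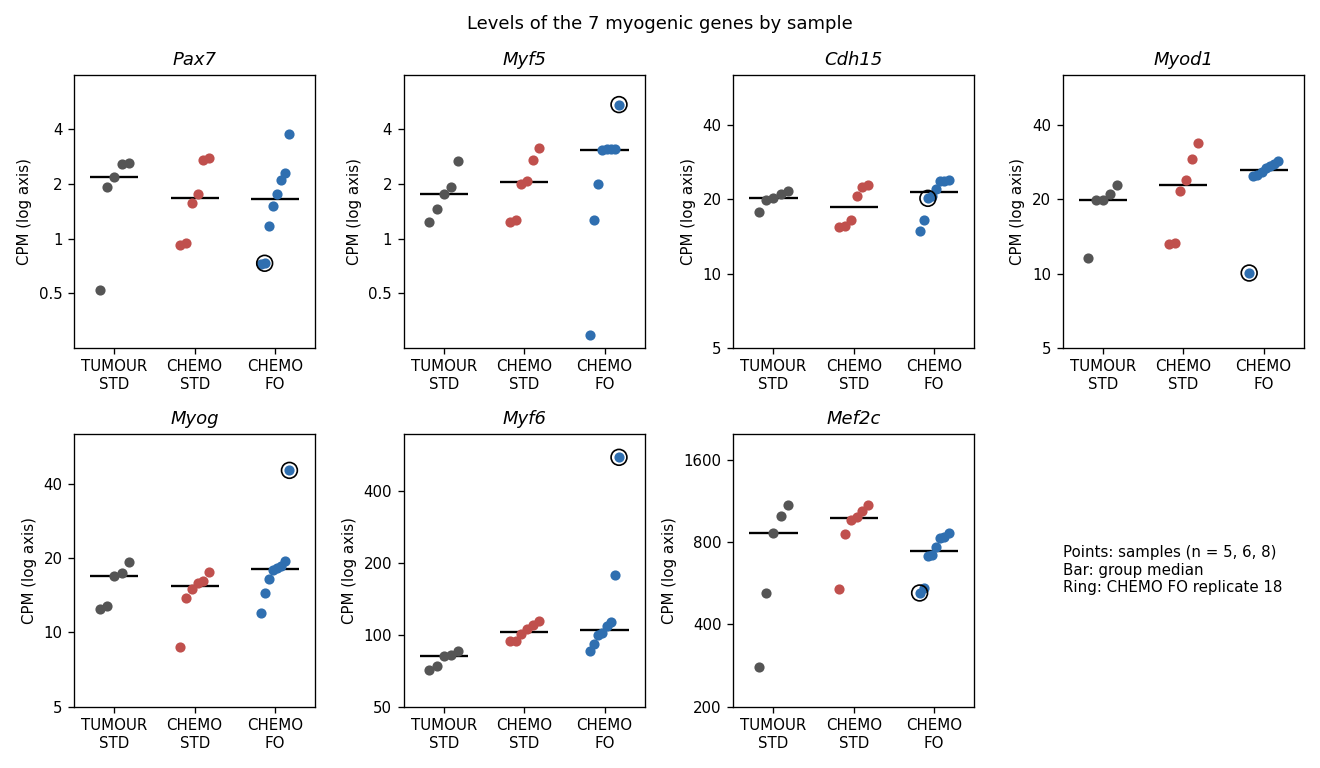
Level of each of the 7 genes in every sample, in CPM on a log axis, for TUMOUR STD (n = 5), CHEMO STD (n = 6) and CHEMO FO (n = 8). Points are samples, bars are group medians and the ring marks CHEMO FO replicate 18, which was highest for Myog (45.4 CPM) and Myf6 (557 CPM) and lowest in its group for Myod1 (10.0 CPM).

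Myod1, the commitment factor, was even in the fish oil group apart from a single sample. TUMOUR STD samples held 11.5, 19.94, 19.96, 21.0 and 22.9 CPM. CHEMO STD ranged from 13.2 to 34.0 CPM (median 22.8), the widest spread of the 3 groups, and CHEMO FO from 10.0 to 28.7 CPM (median 26.3). Replicate 18 was the 10.0, and the other 7 CHEMO FO samples lay between 24.9 and 28.7 CPM, above all 5 TUMOUR STD samples. With all samples the difference between CHEMO FO and TUMOUR STD was 0.34 (SE 0.24, 95% interval -0.16 to 0.84), with an adjusted p = 0.666 in edgeR's test. Without replicate 18 it was 0.48 (SE 0.20, 95% interval 0.063 to 0.89, adjusted p = 0.509 in edgeR's test), under the 1.5-fold threshold, and the 2 groups no longer overlapped, as in 0.535% of all genes in that comparison (0.268% higher). A two-sided exact permutation test of log2 CPM gave p = 0.239 with replicate 18 and p = 0.00253 without it. The latter is the smallest that 792 arrangements allow and follows from the lack of overlap once that sample is left out. CHEMO STD lay between the other groups in mean, at 22.5 ± 8.39 CPM (SD, n = 6) against 19.1 ± 4.39 (n = 5) and 24.5 ± 6.0 (n = 8), and neighbours in this order did not differ beyond their spread. The log2 differences were 0.26 (95% interval -0.27 to 0.79) in the chemotherapy comparison and 0.081 (-0.39 to 0.55) in the diet comparison, the latter 0.20 (-0.19 to 0.60) without replicate 18.

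Pax7 and Myod1 varied together in both groups on the standard diet, and in part in CHEMO FO. In CHEMO STD the samples lowest for Myod1, replicates 3 and 5 at 13.2 and 13.3 CPM, were also lowest for Pax7, at 0.920 and 0.947 CPM. The samples highest for Myod1, the joined replicates 1 and 2 and replicate 6 at 34.0 and 29.2 CPM, were highest for Pax7, at 2.78 and 2.71 CPM. TUMOUR STD replicate 8 was lowest of its group for both. CHEMO FO shared this order in part. Its replicates 16 and 20 were highest for both genes, at 3.79 and 2.29 CPM of Pax7 and 27.9 and 28.7 CPM of Myod1. Replicate 18 was lowest for Myod1 (10.0 CPM) and close to lowest for Pax7 (0.731 CPM). The lowest Pax7 sample, replicate 19 at 0.722 CPM (3 counts), held 26.7 CPM of Myod1, above the group median. After the group means were removed, Pearson r was 0.77 over 19 samples and 0.77 over the 18 without replicate 18. These points share libraries, depth and the cell makeup of each muscle piece, and Pax7 rests on few counts, so r is given as a description. No other pair of the 7 genes exceeded 0.54 without replicate 18, the value for Myod1 and Cdh15.

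Myog, which drives differentiation, had similar medians in the 3 groups, and a single sample stood far above the rest. TUMOUR STD held 12.4, 12.8, 16.9, 17.5 and 19.3 CPM, CHEMO STD ranged from 8.68 to 17.5 CPM (median 15.4), and CHEMO FO from 11.9 to 45.4 CPM (median 18.1). The 45.4 was replicate 18, and the next highest CHEMO FO sample held 19.5 CPM. The groups overlapped. For CHEMO FO versus CHEMO STD the log2 difference was 0.50 (SE 0.24, 95% interval 0.0035 to 1.01, adjusted p = 0.974 in edgeR's test), which missed the 1.5-fold threshold. Without replicate 18 it was 0.20 (-0.15 to 0.55), and the two-sided exact permutation test gave p = 0.139 with it and p = 0.242 without it. In the chemotherapy comparison the difference was -0.13 (-0.69 to 0.42), and in the combined one it was 0.37 (-0.15 to 0.89), or 0.082 (-0.28 to 0.44) without replicate 18.

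The log2 ratio of Myod1 to Myog was followed in each sample. It sets a commitment factor against a differentiation factor, but these genes are also known to differ between fast and slow fibres. All 9 tested slow fibre markers had values below 0 in the chemotherapy and combined comparisons (median log2 differences -0.47 and -0.34). In the diet comparison 7 were above 0 and 2 below (median 0.15). The part of fibre type in the ratio was not tested. The ratio was -0.54, 0.12, 0.19, 0.67 and 0.82 in TUMOUR STD, -0.27 to 1.28 (median 0.83) in CHEMO STD and -2.14 to 1.17 (median 0.56) in CHEMO FO. The -2.14 was replicate 18, where the CPM ratio of Myod1 to Myog was 0.221, and the other 7 CHEMO FO samples all had more Myod1 than Myog, with ratios of 0.36 to 1.17. The group means were 0.25 ± 0.54, 0.57 ± 0.64 and 0.32 ± 1.03 (SD, n = 5, 6 and 8), and the last was 0.68 ± 0.29 (n = 7) without replicate 18. The ranges overlapped in all 3 comparisons. Two-sided exact permutation tests gave p = 0.403 for the chemotherapy comparison (difference 0.32), p = 0.749 for the diet comparison (-0.25) and p = 0.827 for the combined one (0.072). Without replicate 18 the second difference turned to 0.11 (exact p = 0.691) and the third was 0.42 (exact p = 0.109).

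**Figure D2:**
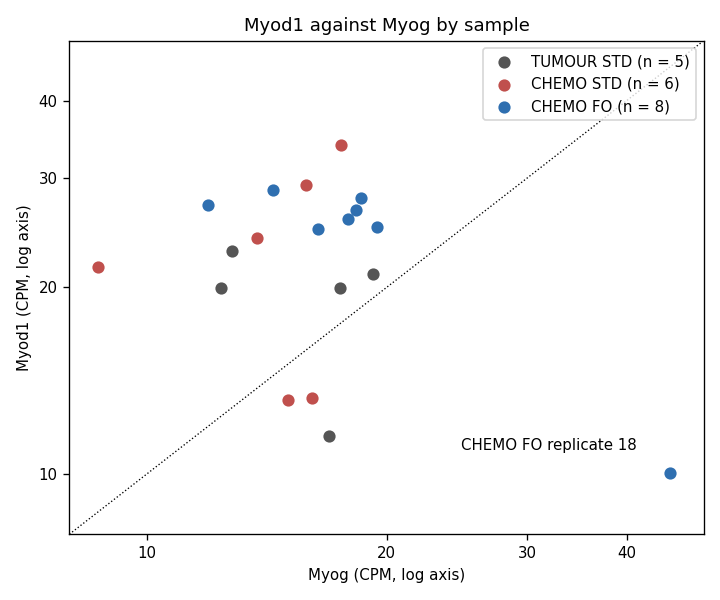
Myod1 against Myog in each of the 19 samples, in CPM on log axes, coloured by group, with a dotted line where the levels are equal. CHEMO FO replicate 18 (45.4 CPM Myog, 10.0 CPM Myod1) lies far below the line, whereas 15 of the other 18 samples lie above it.

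Myf6, the regulator kept in mature fibres, gave the clearest difference between groups. TUMOUR STD samples held 71.3, 73.9, 81.8, 82.6 and 85.4 CPM. CHEMO STD samples held 93.9, 94.1, 101, 105, 110 and 115 CPM, and CHEMO FO samples held 85.4, 91.3, 99.5, 102, 109, 113, 178 and 557 CPM. Every CHEMO STD sample was above every TUMOUR STD sample, and so, by a hair, was every CHEMO FO sample, since the lowest of them (replicate 16, 85.42 CPM) only just exceeded the highest TUMOUR STD sample (replicate 9, 85.41 CPM). The means were 79.0 ± 6.08 (SD, n = 5), 103 ± 8.45 (n = 6) and 167 ± 160 CPM (n = 8), and the last was 111 ± 31.0 CPM (n = 7) without replicate 18.

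For chemotherapy on the standard diet, Myf6 was 1.30-fold higher than in TUMOUR STD, a log2 difference of 0.38 (SE 0.37, 95% interval -0.38 to 1.14). It did not pass edgeR's test (adjusted p = 0.792), whose error is shared across the 3 groups. None of the 7 genes was called in this comparison, against 2.38% of all genes. Myf6 alone of the 7 did not overlap between these groups, which held for 0.487% of all genes and, in the higher direction, for 0.179%. The two-sided exact permutation test of log2 CPM gave p = 0.00433, the smallest that 462 arrangements allow, which follows from the lack of overlap. With replicate 18 left out of the shared error, the same difference of 0.39 had an SE of 0.15 and a 95% interval of 0.085 to 0.69 (adjusted p = 0.550 in edgeR's test). With only these 2 groups in the fit, the adjusted p = 0.625 in edgeR and the adjusted p = 0.0851 in DESeq2. The difference lay between 0.34 and 0.41 in all 30 alternatives of the fit, under 1.5-fold in each, and the unadjusted p was under 0.05 in 4 of them.

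For the fish oil diet under chemotherapy, Myf6 was the 1 gene of the 7 called, higher in CHEMO FO than CHEMO STD by 0.70 (SE 0.33, 95% interval 0.012 to 1.38, adjusted p = 0.974 in edgeR's test), against 1.66% of all genes called and 0.615% called higher. The 2 groups overlapped, 6 of 8 CHEMO FO samples lay within or below the CHEMO STD range, and the medians were 105 and 103 CPM. Without replicate 18 the difference was 0.11 (95% interval -0.16 to 0.39) and the call was lost. The exact permutation test gave p = 0.445 with that sample and p = 0.779 without it. The call was also lost on leaving out any of 11 other single libraries, where the log2 difference was 0.68 to 0.73 and the unadjusted p lay between 0.0502 and 0.0740. DESeq2 on all samples put the difference at 0.087 and limma voom at 0.098. DESeq2's default handling of outlying counts and voom's quality weights can both lessen the pull of a single sample. Whether they did so for replicate 18 was not tested.

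In the combined comparison, Myf6 was higher in CHEMO FO than TUMOUR STD by 1.07 (SE 0.36, 2.10-fold, 95% interval 1.26-fold to 3.51-fold). It was again the 1 of 7 genes called (adjusted p = 0.486 in edgeR's test), against 3.6% of all genes called and 1.09% called higher. It was also the 1 of 7 without overlap, against 0.316% of all genes and 0.145% in the higher direction. The exact permutation test gave p = 0.00155, the smallest that 1287 arrangements allow. Without replicate 18 the exact permutation test gave p = 0.00253, the smallest that 792 arrangements allow. Both values follow from the lack of overlap. The difference was then 0.50 (SE 0.14, 95% interval 0.21 to 0.79, adjusted p = 0.490 in edgeR's test), a 1.41-fold difference that no longer met the fold threshold. The unadjusted p was under 0.05 in all 30 alternatives of the fit, with differences of 0.46 to 1.17, and DESeq2 and limma voom put it under 1.5-fold. This comparison and that of CHEMO STD share the TUMOUR STD samples, so the low TUMOUR STD values enter both.

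**Figure D3:**
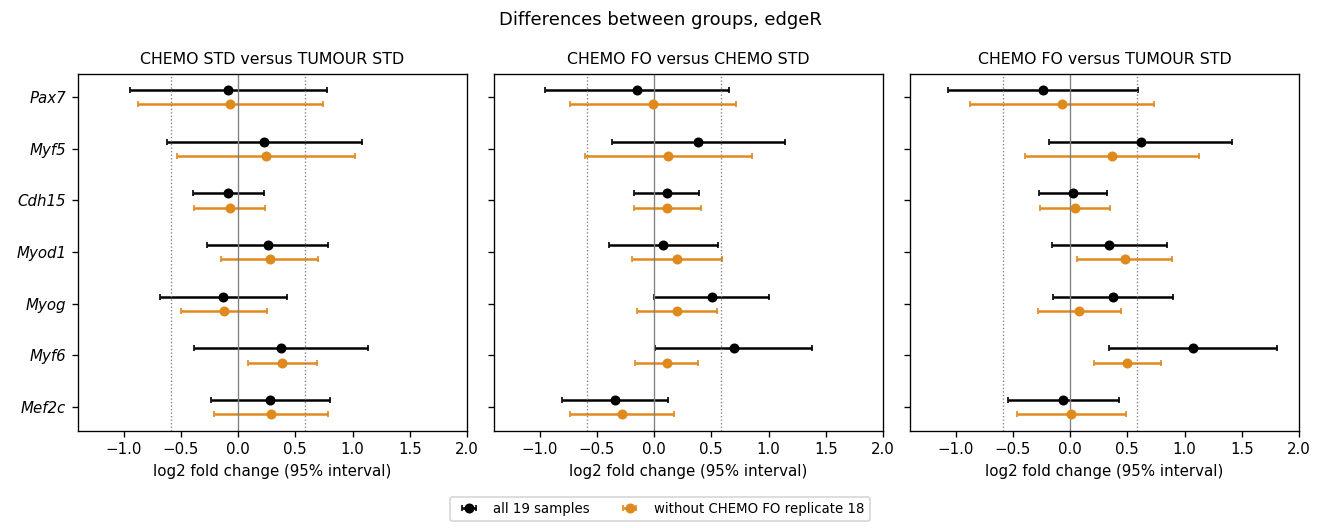
Log2 fold change of each gene in the 3 comparisons with its 95% interval from edgeR, with all 19 samples (black) and without CHEMO FO replicate 18 (orange), and dotted lines at a 1.5-fold change. Myf6 in CHEMO FO versus TUMOUR STD falls from 1.07 to 0.50 and stays above 0, whereas in CHEMO FO versus CHEMO STD it falls from 0.70 to 0.11.

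Myog, Myf6 and Myf5 were all highest in replicate 18, so the 250 bases before their starts are shown from RefSeq (build GRCr8), where 5 of the 7 genes had an entry, with Myod1 and Mef2c not analysed here. The windows are chr13:48297226-48297475 on the plus strand for Myog, and chr7:44701314-44701563 and chr7:44692639-44692888 on the minus strand for Myf6 and Myf5, which are next to each other among the protein-coding genes of that chromosome. They are printed 5′ to 3′ in the direction of the gene, and capitals mark the E-box motif CANNTG and the MEF2 consensus, searched on both strands.
Myog: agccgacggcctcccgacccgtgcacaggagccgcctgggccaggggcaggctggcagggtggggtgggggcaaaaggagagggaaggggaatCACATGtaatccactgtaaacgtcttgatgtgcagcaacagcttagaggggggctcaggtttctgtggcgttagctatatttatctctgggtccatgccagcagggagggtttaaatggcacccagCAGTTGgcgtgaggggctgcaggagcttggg
Myf6: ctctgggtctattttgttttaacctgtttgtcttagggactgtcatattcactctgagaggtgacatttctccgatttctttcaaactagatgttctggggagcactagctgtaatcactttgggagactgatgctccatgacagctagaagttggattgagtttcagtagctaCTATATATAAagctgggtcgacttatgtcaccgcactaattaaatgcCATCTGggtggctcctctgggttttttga
Myf5: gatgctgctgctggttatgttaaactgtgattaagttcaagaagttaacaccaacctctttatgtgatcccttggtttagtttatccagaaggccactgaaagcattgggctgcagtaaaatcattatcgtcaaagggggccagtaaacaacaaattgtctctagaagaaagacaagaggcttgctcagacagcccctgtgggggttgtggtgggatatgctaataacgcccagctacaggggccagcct
The Myog window holds 2 E-boxes, which begin 157 and 31 bases before the start. The MEF2 consensus was searched as YTAWWWWTAR, with Y for C or T, W for A or T and R for A or G. The Myog window has no match to it, but holds ctatatttat, which departs from that pattern only at its last base. The Myf6 window holds 1 E-box, 29 bases before the start, and 1 match to the MEF2 consensus, 76 bases before it, which overlaps a TATAAA. The Myf5 window holds neither motif, which says only that those letters are not in these 250 bases. An E-box is found in 65.5% of the 33469 promoter windows of this length, TATAAA in 12.9% and the MEF2 consensus in 2.96%, so only the MEF2 match is uncommon. A match is a description of the letters and not a bound site.

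The genes most like Myf6 across samples, after the group means were removed, were Trim63 (Pearson r 0.98), the arrestin-family gene Arrdc3 (0.97) and Ppp1r15a (0.94), over 19 samples. Without replicate 18 they were Arrdc3 (0.87), Pde4b (0.83) and Trim63 (0.82), over 18 samples. Replicate 17, second highest for Myf6 at 178 CPM, was also second for Trim63, at 416 CPM, where the remaining 17 samples lay between 191 and 260 CPM. In replicate 18 the ligase Fbxo32 was at 1875 CPM (at most 652 elsewhere), the stress gene Gadd45a at 77.8 CPM (at most 12.6) and Musk, the synaptic kinase, at 30.3 CPM (at most 9.2). Its fast myosin Myh4 was at 61629 CPM, the lowest of all samples, and complement C3 at 69.2 CPM (at most 3.5). The summed level of 10 leukocyte and macrophage markers was 597 CPM in this sample against 172 to 446 CPM in the others, Cd3e alone of those markers was at 0 in any sample, and their part in the Myf6 level was not tested. The pairing of Myog with Myf6 (r 0.68) rested on replicate 18, since r was -0.09 without it, and likewise that of Myod1 with Myf6 went from -0.66 to -0.18.

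**Figure D4:**
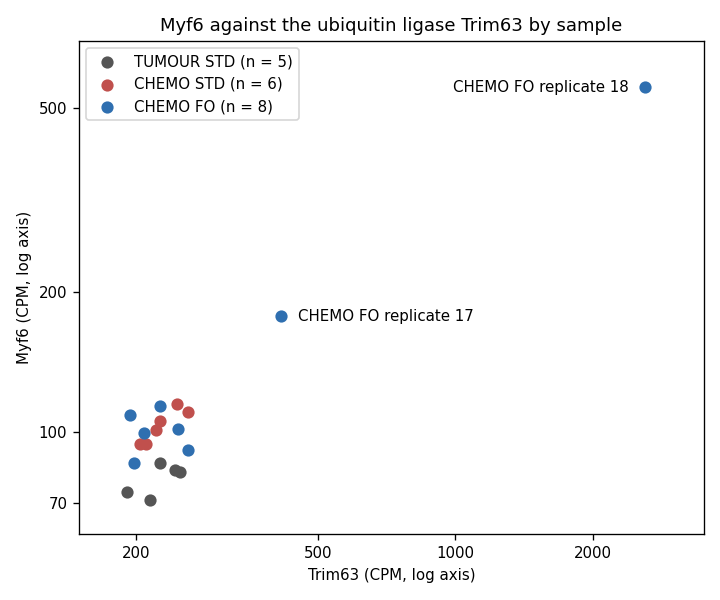
Myf6 against Trim63 in each of the 19 samples, in CPM on log axes, coloured by group. CHEMO FO replicates 18 (2602 CPM Trim63, 557 CPM Myf6) and 17 (416 and 178 CPM) lie up and to the right of all other samples, and the TUMOUR STD samples form the lower edge of the rest.

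The genes most like the other regulators were Neurl1 for Myod1 (r 0.95, and 0.93 without replicate 18), Zpr1 for Myog (0.93 and 0.88), Cd38 for Myf5 (0.90 and 0.90) and RGD1310507 for Pax7 (0.83 and 0.84). For Cdh15 it was Agap3 (0.83), replaced by Rps10l1 (0.87) without that sample, and for Mef2c Usp15 (0.95), replaced by Fgfr1op2 (0.98). These are the highest of 11715 values each over points that share library and depth.

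Mef2c, the MADS-box partner of the myogenic factors, was the most variable in TUMOUR STD, at 280, 520, 864, 1001 and 1091 CPM. It ranged from 541 to 1096 CPM (median 979) in CHEMO STD and from 521 to 865 CPM (median 742) in CHEMO FO. The 3 ranges overlapped, with CHEMO FO the narrowest. The lowest sample, TUMOUR STD replicate 10, also held 506 CPM of summed keratinocyte markers, against at most 109 CPM elsewhere. Summed fibro-adipogenic progenitor markers were 14727 CPM there and 14918 CPM in replicate 12 (3988 to 6482 CPM in other TUMOUR STD samples). They were 12959 CPM in the joined CHEMO STD replicates 1 and 2, against 3251 to 6530 CPM in its other samples. In CHEMO FO the highest sum, 8488 CPM, was in replicate 16 (543 CPM Mef2c). The lowest, 2318 CPM, was in replicate 18 (521 CPM Mef2c). The part of skin and connective tissue in the Mef2c level was not tested. For CHEMO FO versus CHEMO STD the difference was -0.34 (SE 0.22, 95% interval -0.80 to 0.12, adjusted p = 0.974 in edgeR's test), and the exact permutation test gave p = 0.0899. Without replicate 18 it was -0.28 (-0.73 to 0.17) with an exact permutation p = 0.157. The lowest CHEMO STD sample was the joined replicates 1 and 2. With these left out, every CHEMO STD sample but 1 exceeded all CHEMO FO samples, and the exact permutation test gave a difference of -0.47 with p = 0.00311. Leaving out the lowest sample of a group raises that group by construction, and this was done after the data were seen. That p therefore only shows how far the result rested on the joined replicates. The difference was 0.28 (-0.24 to 0.80) in the chemotherapy comparison and -0.058 (-0.54 to 0.43) in the combined one, or 0.011 (-0.47 to 0.49) without replicate 18. Without TUMOUR STD replicate 10 these differences were 0.073 and -0.27, and on the exact test's scale the first went from 0.41 to 0.093 and the second from 0.084 to -0.23.

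Other genes of the programme were followed in 7 lists, where list medians are of log2 fold changes and are set beside those of all genes, which were within 0.01 of 0. In the chemotherapy comparison, 1 of 26 tested satellite cell genes other than the members was called, the Notch receptor Notch3, lower by -0.77 (list median -0.16), and 19 of the 26 had a value below 0. Among inhibitors of myogenic factors 2 of 12 were called lower, Bhlhe40 (-0.65) and Snai1 (-0.71), with a list median of -0.19. N-cadherin (Cdh2, -1.24), which acts in myoblast adhesion, was called lower among 15 differentiation and fusion genes. Cyclin D1 (Ccnd1, -0.86) was called lower among 8 proliferation genes. None of 14 E proteins and partners, 12 denervation-responsive genes or 7 growth factors was called in either direction. Adjusted p was 0.719 for each of these genes in edgeR's test. The share of all genes called lower was 1.45%. Without replicate 18, Snai1 was not tested, Bhlhe41 (-0.62) was called beside Bhlhe40, and Notch3, Cdh2 and Ccnd1 were still called.

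In levels, Ccnd1 was 16.2 to 26.3 CPM in TUMOUR STD, 8.47 to 15.3 CPM in CHEMO STD and 3.28 to 14.9 CPM in CHEMO FO. Both chemotherapy groups thus lay wholly below the tumour group, whose samples enter both comparisons. In either direction, 0.487% of all genes did not overlap in the chemotherapy comparison and 0.316% in the combined one. Bhlhe40, a transcriptional repressor of the circadian system, was 135 to 237 CPM in TUMOUR STD, 103 to 160 CPM in CHEMO STD and 58.4 to 188 CPM in CHEMO FO, and these ranges overlapped. Markers of smooth muscle and slow fibres moved with the same comparison. Of 7 tested smooth muscle markers 4 were called lower (Myh11, Acta2, Tagln and Actg2), with summed levels of 3364 to 7034 CPM in TUMOUR STD and 3024 to 5792 CPM in CHEMO STD, a sum that is mostly Des, which fibres also make, and with Cnn1 at 0 in 1 CHEMO STD sample. Of 9 slow fibre markers 2 were called lower (Myh7 and Atp2a2), with sums of 8293 to 16081 CPM and 6696 to 11006 CPM and no marker at 0. Of 9 tested leukocyte and macrophage markers, Ptprc (1.16) and Lyz2 (0.72) were called higher, while 5 had a value above 0 and 4 below (list median 0.015). Dsp (-3.47), the 1 keratinocyte marker tested, was called lower. The summed keratinocyte level was 506 CPM in TUMOUR STD replicate 10 and 4.87 to 6.48 CPM in the rest of that group. In CHEMO STD it was 1.53 to 7.30 CPM, so the high level was that of a single sample. The part of vessel, leukocyte, skin and slow fibre content in the levels of Notch3, Ccnd1 or Myf6 was not tested.

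For CHEMO FO versus CHEMO STD, 11 of 12 denervation-responsive genes had a value above 0 (list median 0.40) and 2 were called higher, Trim63 (1.25) and Fbxo32 (0.92), against 0.615% of all genes, while the cell-cycle inhibitor Cdkn1a (1.57) was called among differentiation genes. Without replicate 18, 8 of 12 were above 0 (median 0.09) and no gene of the 7 lists was called. The summed denervation list was 581 to 838 CPM in TUMOUR STD, 623 to 921 CPM in CHEMO STD and 572 to 4765 CPM in CHEMO FO, where replicate 18 was the highest and replicate 17 followed at 1255 CPM. Of the other 5 lists, none had a called gene with all samples. Of 5 tested Schwann cell markers 4 were called lower, Mbp (-1.12) and Prx (-0.82) among them, against 123 of 11716 genes called lower. Mbp (-1.06) was still called without replicate 18. The summed Schwann level in CHEMO STD was highest in the joined replicates 1 and 2 (345 CPM) and in replicate 7 (231 CPM). Its other samples held 58.4 to 95.7 CPM, and CHEMO FO held 46.2 to 109 CPM. The medians were 89.2 CPM in CHEMO STD and 79.2 CPM in CHEMO FO. Leukocyte markers Ptprc and Lyz2, of 9 tested, were also called lower. The summed leukocyte level was 223 to 446 CPM in CHEMO STD (median 259) and 172 to 597 CPM in CHEMO FO (median 252). The highest samples were replicate 7 in CHEMO STD and replicate 18 in CHEMO FO. Replicate 7 also held 64.1 CPM of summed B cell markers, against at most 3.80 CPM in any other sample. Without replicate 18, Ptprc, Lyz2 and Itgam were called lower. The part of Schwann cells and leukocytes in the levels of the 7 genes was not tested.

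For CHEMO FO versus TUMOUR STD, Fbxo32 (1.27), Trim63 (1.26), Gadd45a (1.29) and Cdkn1a (1.37) were called higher, and Ccnd1 (-0.93), Cdh2 (-1.48), Igf2 (-0.64), Bhlhe40 (-0.65) and Bhlhe41 (-0.69) were called lower. Their adjusted p lay between 0.457 and 0.551 in edgeR's test. These were 3 of 12 denervation-responsive genes called higher (list median 0.31) and, of 15 differentiation and fusion genes, 1 called higher and 2 lower (-0.11). Of 12 inhibitors 2 were called lower (-0.20), as was 1 of 8 proliferation genes (0.016). None of 26 satellite cell genes, 14 E proteins and partners or 7 growth factors was called. Of all 11716 genes, 1.09% were called higher and 294 genes lower. Among markers of other cell types, the macrophage gene Cd163 (1.22) was called higher, although 6 of the 9 leukocyte and macrophage markers had a value below 0 (list median -0.080). Without replicate 18, 8 of the 9 were below 0 and none was called. Called lower were Myh7 of slow fibres (-0.61), Myh11, Acta2 and Tagln of smooth muscle (-0.91, -0.89 and -0.62), the collagen gene Col1a1 (-1.37), Prx of Schwann cells (-0.84) and Dsp (-2.66), and their part in these differences was not tested. Without replicate 18, Fbxo32 (0.65), Ccnd1 (-0.83) and Cdh2 (-1.59) were still called among the genes of the 7 lists, and among the markers Myh11 (-0.84), Acta2 (-0.77), Col1a1 (-1.19) and Dsp (-2.61). The lower values of Ccnd1 and Cdh2 after chemotherapy were thus the changes in the 7 lists that were called against TUMOUR STD in both chemotherapy groups, with and without that sample, and both comparisons share the TUMOUR STD samples.

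No gene of the whole table passed an adjusted p of 0.05 in edgeR's test in any comparison, where 762, 528 and 1059 genes had an unadjusted p under 0.05 in the chemotherapy, diet and combined comparisons. limma voom gave 0 in each comparison as well. DESeq2 gave 0, 0 and 11 on all samples and 16, 0 and 5 on only the 2 groups compared.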

How the data were processed

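Gastrocnemius RNA of 20 libraries was sequenced. Per the labels and the study's methods, the authors called bases with CASAVA 1.9, trimmed with Trim Galore 0.4.1, checked reads with FastQC 0.11.4, aligned to Rnor 6 with TopHat2 2.0.10 and Bowtie2, and deposited raw counts per gene, made in Partek Flow. The sources used here do not say how Partek Flow treated strand or multiply matching reads. Of 32883 rows, 388 without a gene name were left out (0.102% to 0.272% of a library's counts). For Myh4, 2 libraries have values written with 3 digits.

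Counts were fitted with edgeR 4.0.16 in R 4.3.3 (TMM, default filter with a minimum count of 10 and minimum total of 15, quasi-likelihood test, 3 groups together), with p adjusted by Benjamini-Hochberg over all genes tested, and CHEMO STD replicates 1 and 2 summed. The call thresholds follow the study's methods, where DESeq2 was used. CPM of that pair were averaged. Exact permutation tests (SciPy 1.17.1, two-sided) used log2 CPM with a prior count of 2, for 7 genes and 1 ratio in 3 comparisons. Their p-values were not adjusted for the number of tests. Intervals are at 95%, and Poisson intervals cover counting error only. Likeness took the 3 highest Pearson r per gene after removing group means. Alternatives were RLE factors, library totals, no filter, a mean of at least 10 counts, DESeq2 1.42.0, limma 3.58.1 voom with quality weights, 2-group fits, fold thresholds of none and 2, prior counts of 0.5 and 5, both or neither of the pair, and each library left out. Leaving samples out of the exact tests, their other prior counts, and leaving replicate 18 out of likeness and lists were chosen after seeing the data. The 7 genes, the 7 pathway lists and the 11 marker lists were chosen with earlier results of these data known. Pathway genes were named where called, up to 4 a list. The list genes Kat2b, Chrng, Ccnb2, Myh1, Myh2, Pecam1 and Col1a2 were not analysed here. Some marker genes are not reported here. The fits were tested on simulated data. No source used here ties each library to an animal, so p-values measure the spread between these samples, which may be partly technical. Figures used matplotlib 3.10.9.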

Additional observations from a re-analysis of the deposited data

Results flagged for a closer look

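In 24 sets of values (7 genes and the Myod1 to Myog CPM ratio in 3 groups), a single sample was tested for its distance from the rest of its group by Dixon's ratio. Chance alone marks about 1 in 20 such sets. CHEMO FO replicate 18 lay apart from its group for 3 genes: Myf6 at 557 CPM (next highest 178 CPM), Myog at 45.4 CPM (next highest 19.5 CPM) and Myod1 at 10.0 CPM (next lowest 24.9 CPM). TUMOUR STD replicate 8 lay apart for Myod1, at 11.5 CPM (next lowest 19.9 CPM).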

How the results depend on the processing

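No paired analysis was possible because the replicate numbers are unique across groups. For the chemotherapy, diet and combined comparisons, 971, 722 and 1116 genes were called with no low-count filter, 762, 528 and 1059 with no fold threshold, and 64, 58 and 112 with a fold of at least 2. The chemotherapy comparison gave 603 with CHEMO STD replicates 1 and 2 both left out. Leaving out single libraries gave 161 (TUMOUR STD replicate 10) to 530 (replicate 8, with 450 for replicate 11), 153 to 234, and 273 (CHEMO FO replicate 18) to 584. In the diet comparison 0 of the 7 genes were called with library totals, both DESeq2 fits, limma voom, only the 2 groups in edgeR or a fold of 2, and 2 with no fold threshold. With replicates 1 and 2 left out, Myog (0.59) was called there and Myf6 (0.67) was not. In the combined comparison 0 were called with both DESeq2 fits and limma voom. Leaving out single libraries gave 0 to 2 genes in both (2 without CHEMO FO replicate 14 in the diet comparison and without replicate 13 in the combined one). The Myod1 to Myog difference ran from -0.42 to 0.11 in the diet comparison and from -0.13 to 0.42 in the combined one on leaving out single samples.

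Other turns of sign were in estimates near 0. In the chemotherapy comparison Pax7 became 0.017 with replicates 1 and 2 kept apart. In the diet comparison it became 0.058 with both left out (0.072 on the exact test's scale), Myod1 became -0.011 with the pair kept apart and Myf5 -0.0043 with limma voom. On leaving out single libraries, Pax7 ran from -0.30 to 0.045 (exact test's scale -0.42 to 0.043) in the chemotherapy comparison, where Myog ran from -0.21 to 0.0060 on the latter scale. In the diet comparison Myod1 ran from -0.027 to 0.20, and on the exact test's scale Pax7 from -0.21 to 0.072 and Myf5 from -0.014 to 0.45. In the combined comparison Cdh15 ran from -0.0022 to 0.097 (-0.012 to 0.094) and Mef2c from -0.27 to 0.11 (-0.23 to 0.26). The cause of these shifts was not tested. Pax7 did not pass the filter in the diet comparison's 2-group fits and had no value there.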
